A study of Mus musculus with 2 samples.

Results

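Kainate receptors are one of the classes of glutamate-gated cation channels. The genes described here are the kainate receptor subunit genes Grik1 to Grik5, which encode GluK1 to GluK5, and Neto1 and Neto2, which encode their auxiliary membrane proteins. They were taken by symbol and gene identifier, and all 7 were found among 55536 annotated genes. Together they have 40 of the 141862 annotated transcripts. The samples are 2 libraries of total RNA from hippocampus of female B6CASTF1/J mice, hybrids whose parents are the C57BL/6J and CAST/EiJ strains, aged 18 to 20 months. Each was made from 300 ng of RNA with ribosomal RNA reduced and ERCC spike-in RNAs added, and the labels name no treatment or genetic change. Both libraries belong to 1 group and are numbered as biological replicates 1 and 2. They have separate biosample labels but the same donor label, and the labels do not say whether 1 animal or 2 gave the tissue. The label calls the tissue a layer of hippocampus without saying which.

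A kainate receptor is a tetramer. GluK1, GluK2 and GluK3 can form channels by themselves, whereas GluK4 and GluK5 bind glutamate with high affinity and reach the surface as working channels only together with GluK1 to GluK3. Neto1 and Neto2 are single-pass proteins with CUB domains that bind the assembled receptor and slow its gating. In hippocampus these receptors are best known at the mossy fibre synapse from dentate granule cells onto CA3 pyramidal cells, and in interneurons. They act both at the postsynaptic membrane and on presynaptic release.

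The family divides the same way in its sequence. The windows below show 66 coding bases around the pore loop of each subunit, with the CAG codon of the Q/R position in capitals. At that position adenosine deaminases recode the RNAs of Grik1 and Grik2, and the edited form passes less calcium. The windows were found by the letters ATGCAGCANGG (N is any base) on the sense strand. It is the only stretch of 11 bases, with at most 1 free position, that is in frame in all 5 coding sequences and has CAG as its second codon. It occurs once in each of them and in 0.412% of 58797 protein-coding transcript sequences. They are written from GENCODE M21 (mm10), 5′ to 3′.
Grik1 pore codons: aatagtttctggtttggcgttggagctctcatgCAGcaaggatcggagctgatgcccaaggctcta
Grik2 pore codons: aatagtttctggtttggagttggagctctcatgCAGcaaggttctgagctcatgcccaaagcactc
Grik3 pore codons: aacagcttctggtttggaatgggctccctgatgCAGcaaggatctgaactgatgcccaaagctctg
Grik4 pore codons: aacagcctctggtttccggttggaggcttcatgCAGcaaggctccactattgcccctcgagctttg
Grik5 pore codons: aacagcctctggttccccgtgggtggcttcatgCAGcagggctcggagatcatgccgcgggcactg
The Grik4 window lies in 1 exon at chr9:42547593-42547658 on the minus strand, and that of Grik5 in 1 exon at chr7:25022467-25022532 on the minus strand. The windows of Grik1 (chr16:87936090-87940577, minus strand), Grik2 (chr10:49240771-49244364, minus strand) and Grik3 (chr4:125691174-125693987, plus strand) are each divided by an intron. The capital codon is codon 621 of Grik1 and of Grik2, 623 of Grik3, 606 of Grik4 and 605 of Grik5. The bases fixed by the search letters match in all 5 windows by construction. Pairs among Grik1, Grik2 and Grik3 shared 53 to 59 of 66 bases in the window, and Grik4 and Grik5 shared 49. Pairs across these groups shared 41 to 46, so Grik4 and Grik5 stood little above the closest of them. The same split held over whole coding sequences. Identity was 71.6% to 72.4% among Grik1, Grik2 and Grik3, 72.6% between Grik4 and Grik5, and 60.8% to 65.3% between the groups. Neto1 and Neto2 were 67.4% identical. The tables hold no base calls, so the edited share cannot be read from them.

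Reads assigned to genes numbered 35358140 (replicate 1) and 36307291 (replicate 2), and the members' counts ran from 419 for Grik1 to 7726 for Grik5. Counts here are expected counts, estimated reads that need not be whole. The posterior SD of the gene count was 0 for each of the 7 genes in both libraries, so the deposited estimate gave none of their reads in part to another gene. Of the stretches of 31 bases in a member's transcripts, 0.0163% (Neto2) to 2.42% (Neto1) also occurred in a transcript of another gene, on either strand. Levels below are TPM, an abundance corrected for transcript length and scaled to the same total in each library, from the deposited tables with the RSEM column layout unless the kallisto layout is named. Since the RNA came from whole tissue, fewer cells of a type and less RNA per cell cannot be told apart.

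The partner subunits GluK4 and GluK5 supplied most of the kainate subunit RNA. Grik5 (ENSMUSG00000003378.9, chr7:25009849-25072346, minus strand), the most widely expressed high-affinity subunit gene, was at 86.0 TPM (replicate 1) and 81.9 TPM (replicate 2), a mean of 84.0 ± 2.88 TPM (SD, n = 2). This was the highest level of the 7 genes and lay above 92.2% of 12733 detected protein-coding genes, whose median was 14.4 TPM. Grik4 (ENSMUSG00000032017.14, chr9:42518135-42944493, minus strand), best known from CA3 pyramidal cells, was at 22.2 and 20.2 TPM, a mean of 21.2 ± 1.37 TPM. Grik5 was therefore 3.97 ± 0.121 times Grik4.

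Among the subunits that form channels by themselves, Grik2 led and Grik1 was lowest. Grik2 (ENSMUSG00000056073.16, chr10:49094833-49788766, minus strand), the main subunit gene of mossy fibre receptors, was at 37.5 and 39.2 TPM, a mean of 38.3 ± 1.22 TPM. Grik3 (ENSMUSG00000001985.9, chr4:125490700-125714173, plus strand), whose receptors have low glutamate affinity, was at 11.9 TPM in both libraries. Grik1 (ENSMUSG00000022935.16, chr16:87895900-88290265, minus strand), which in hippocampus is known mainly from interneurons, was at 5.30 and 4.94 TPM. At a mean of 5.12 ± 0.255 TPM it lay above 21.8% of detected protein-coding genes.

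The Neto genes were unequal. Neto1 (ENSMUSG00000050321.3, chr18:86394952-86506718, plus strand), whose protein is known from mossy fibre synapses and also binds NMDA receptors, was at 56.8 and 56.4 TPM, a mean of 56.6 ± 0.304 TPM. Neto2 (ENSMUSG00000036902.11, chr8:85636588-85700924, minus strand), whose protein also binds the potassium-chloride cotransporter KCC2, was at 15.5 and 15.9 TPM, a mean of 15.7 ± 0.262 TPM. Neto1 was 3.66 and 3.55 times Neto2 in the 2 libraries. This ratio was 2.21 and 2.14 in the kallisto layout, and 2.29 and 2.25 without the short transcript Neto1-203, which is described below.

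In order of level the genes ran Grik5, Neto1, Grik2, Grik4, Neto2, Grik3 and Grik1. Every neighbouring pair in this order was separated beyond its spread, with library ranges that did not overlap and a difference above the sum of both SDs. The smallest step was from Neto2 to Grik3, at 3.84 TPM against summed SDs of 0.276 TPM. In the kallisto layout Grik2 stood above Neto1, at 62.3 and 71.6 TPM against 56.3 and 55.4 TPM, and the other genes kept their places. The 2 layouts differ in scale. Over detected protein-coding genes the median ratio of kallisto-layout to RSEM-layout TPM was 1.67, the 5 Grik genes and Neto2 lay at 1.54 to 1.75, and Neto1 lay at 0.987.

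**Figure D1:**
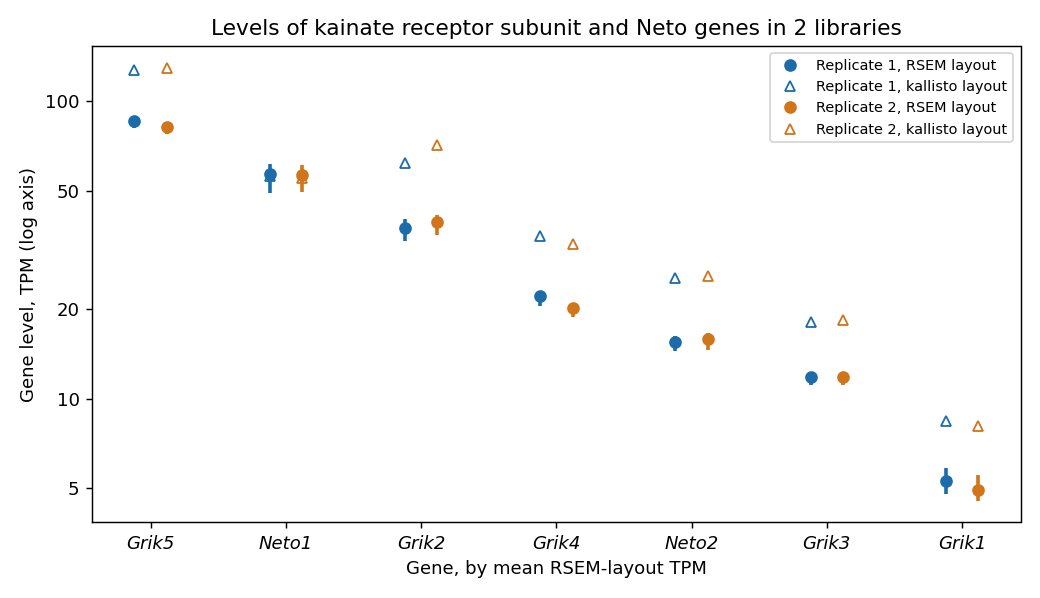
Level of each gene in TPM on a log axis, by library (blue replicate 1, orange replicate 2); filled circles are RSEM-layout values with the deposited credibility interval as a line, and open triangles are kallisto-layout values. The triangles lie above the circles for every gene except Neto1, where both layouts give about 56 TPM, and the libraries lie close together throughout.

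Summed over the 5 subunits, Grik RNA was 163 TPM in replicate 1 and 158 TPM in replicate 2. Grik5 alone held 52.8% and 51.8% of this sum. Grik2 held 23.0% and 24.8%, Grik4 13.6% and 12.8%, Grik3 7.28% and 7.51%, and Grik1 3.26% and 3.12%. Grik4 and Grik5 together held 66.4% and 64.6%, so RNA for the partner subunits was 1.98 and 1.82 times that for GluK1 to GluK3. In the kallisto layout this ratio was 1.84 and 1.66, and from protein-coding transcripts only it was 2.01 and 1.86. Neto1 and Neto2 together reached 0.444 and 0.457 of the Grik sum.

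Beside the AMPA and NMDA receptor subunits, which form the other glutamate-gated channels compared here, the kainate subunits were a minor class. Their sum was 13.3% of the summed TPM of these 16 subunit genes in replicate 1 and 13.7% in replicate 2. AMPA subunit genes held 50.4% and 50.9%, and NMDA subunit genes 36.3% and 35.4%. By mean level Grik5 ranked 6 among the 16 genes, below Gria1, Gria2, Grin1, Grin2a and Grin2b. It stood above Gria3, an AMPA subunit gene at 57.6 and 56.5 TPM. Grik4, at 22.2 and 20.2 TPM, overlapped Gria4 at 21.1 and 22.5 TPM, so the order of these 2 cannot be given. Grik1 ranked 14. Grin3b, the lowest of the 16, was at 0.03 and 0.02 TPM. Each AMPA and NMDA gene at the top of its family was well above the members: Gria1 was at 287 and 266 TPM and Grin1, the obligatory NMDA subunit gene, at 159 and 149 TPM.

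**Figure D2:**
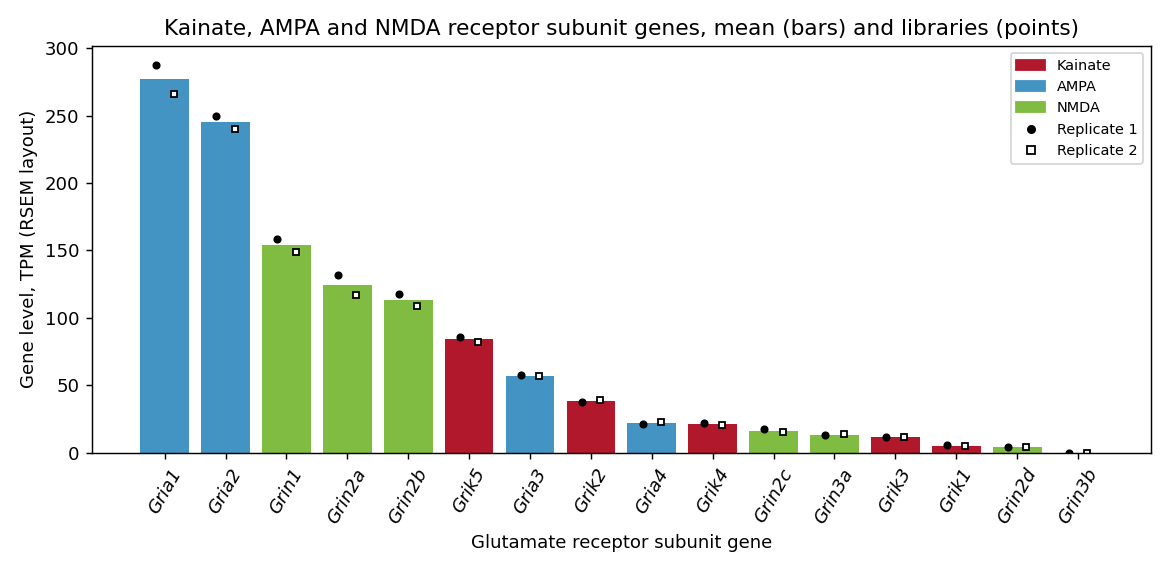
Level in TPM of the 16 kainate, AMPA and NMDA receptor subunit genes, coloured by family; bars are means of 2 libraries, filled circles replicate 1 and open squares replicate 2. Grik5 is the only kainate gene above 50 TPM, Grik2 lies between Gria3 and Gria4, and the other kainate genes lie among Gria4 and the lower NMDA genes.

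The 2 libraries gave nearly the same counts for every member. After scaling, the fold of replicate 2 over replicate 1 was 1.06 for Grik2 (counts 3178 and 3461, exact 95% interval 1.01 to 1.12), the largest departure among the 7. Neto1 was at 0.965 (6415 and 6341 counts, 0.932 to 0.999) and Grik4 at 0.949 (2305 and 2240 counts, 0.895 to 1.01). Grik5, with 7443 and 7726 counts, was at 1.01 (0.982 to 1.05), and Neto2, with 1720 and 1773 counts, was at 1.01 (0.941 to 1.08). Grik3 was at 1.05 (2683 and 2872 counts, 0.991 to 1.102). Grik1, with the fewest reads, had the widest interval, 0.891 to 1.17 around 1.02. The interval left out 1 for Grik2 and Neto1 and held it for the other 5, and it covers counting error only.

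None of the 7 genes was over 2-fold apart, where 0.384% of 14307 genes tested were. None was over 1.2-fold apart, where 10.4% of all tested genes were. These backgrounds take in genes with fewer reads than the members. At a mean count of at least 200, which every member reached, 513 of 11291 genes were over 1.2-fold apart. The members' median absolute log2 ratio was 0.05 beside 0.07 over all genes. With 1 library on each side, these ratios describe the libraries and not a condition.

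**Figure D3:**
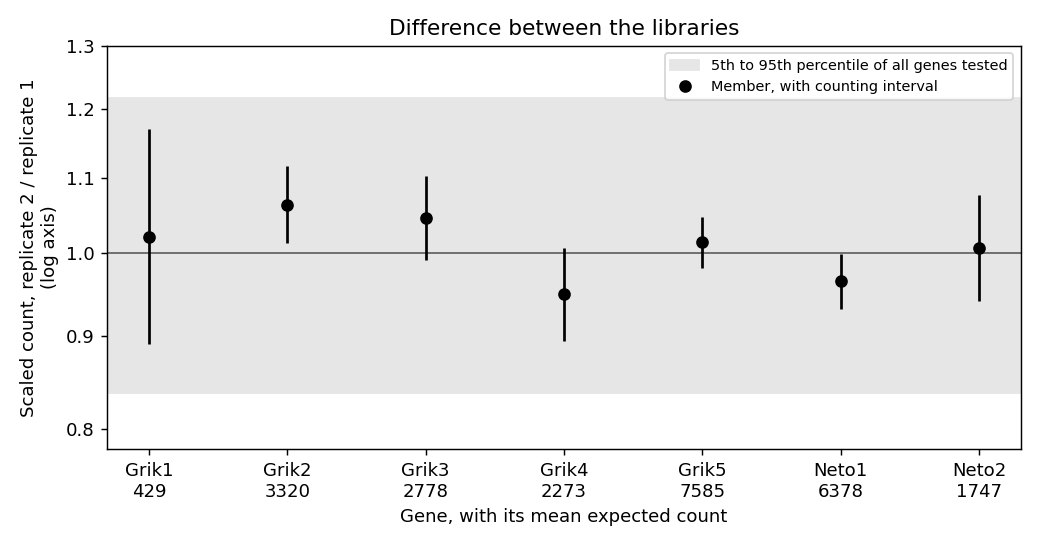
Scaled count in replicate 2 over replicate 1 for each gene on a log axis, with the exact 95% counting interval as a line and the mean count under each name; the grey band runs from the 5th to the 95th percentile of all genes tested (0.838 to 1.22). Each member and its interval lie inside the band.

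Marker genes were read beside the tissue label, which their presence alone cannot test. Markers of CA1, CA2, CA3 and dentate granule cells were present: 17 of 18 reached 1 TPM in each library. Neocortex markers (3 of 3 detected, 51.2 and 52.6 TPM summed) and thalamus markers (3 of 4, 20.0 and 20.9 TPM) were present too, beside 34.1 and 30.8 TPM for CA3. Of 17 hippocampal markers tested, 1 was over 1.2-fold apart, the one below 1 TPM. The untested one had 34 and 62 counts. Median log2 ratios were -0.09 (CA1), -0.10 (CA2), -0.07 (CA3) and -0.09 (dentate). The whole list of excitatory neuron markers summed was at 2551 and 2397 TPM and interneuron markers at 509 and 474 TPM (replicates 1 and 2), and none of these 12 genes was over 1.2-fold apart. Of the lists for other cell types and neighbouring regions, 3 differed between the libraries in most of their tested genes, those of oligodendrocytes, meningeal fibroblasts and choroid plexus. Oligodendrocyte markers summed to 1197 and 872 TPM, with 5 of 6 over 1.2-fold higher in replicate 1. Meningeal fibroblast markers summed to 55.7 and 93.5 TPM, with 7 of 7 over 1.2-fold higher in replicate 2, and choroid plexus markers to 158 and 54.5 TPM, with 2 of 3 tested over 2-fold higher in replicate 1. Of 5 astrocyte, 5 microglia, 3 oligodendrocyte precursor, 3 neocortex and 3 tested thalamus markers, 0 were over 1.2-fold apart. Of 5 endothelial markers 1 was. Over all genes tested, 10.4% were over 1.2-fold and 0.384% over 2-fold apart. Counts of 0 or 1 in lists this short, those of hippocampal and neuron markers included, do not set them apart from that share. What part oligodendrocytes, meninges and choroid plexus had in the small differences of the members was not tested.

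At the transcript level the members fell into genes with 1 coding form, genes with alternative ends and genes with alternative starts. Transcript shares below are percentages of the gene's TPM. For 39 of the 40 transcripts the deposited credibility intervals of both libraries overlapped, and the exception was Neto1-201 (27.9 to 29.4 TPM in replicate 1, 25.7 to 27.0 TPM in replicate 2). The leading transcript was the same in both libraries for each of the 6 genes with more than 1 transcript. Taking in the kallisto layout as well, 3 of them kept it throughout, Grik4, Grik5 and Neto1.

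Grik2 RNA was divided among transcripts that end in different ways. Both of the main ends code for known intracellular tails of GluK2. The long tail, GluK2a, carries a PDZ-binding end and sites for SUMO attachment, and the short tail, GluK2b, lacks them. A further annotated end closes the reading frame after 338 codons, ahead of the pore codons printed above. The last coding stretch of each form follows, with the stop codon in capitals.
Grik2 long tail: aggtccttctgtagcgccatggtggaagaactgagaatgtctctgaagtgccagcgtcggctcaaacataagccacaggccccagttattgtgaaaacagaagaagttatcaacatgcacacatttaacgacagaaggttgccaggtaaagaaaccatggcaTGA
Grik2 short tail: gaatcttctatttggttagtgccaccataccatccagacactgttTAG
Grik2 early end: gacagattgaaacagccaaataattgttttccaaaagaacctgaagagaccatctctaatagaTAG
The long tail lies at chr10:49101108-49101272, the short tail at chr10:49105018-49105065 and the early end at chr10:49496095-49496160, each in 1 coding exon on the minus strand.

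By point estimate the long tail was somewhat more abundant than the short tail in the RSEM layout and level with it in the kallisto layout. Transcripts with the long tail, Grik2-202 and Grik2-207 (908 codons each), held 29.5% and 29.6% of Grik2 TPM in replicates 1 and 2. Those with the short tail, Grik2-204 and Grik2-201 (869 codons each), held 23.3% and 22.9%. A further complete tail, that of Grik2-205 (893 codons), held 0.987% and 0.383%. Of the transcripts with a complete tail, Grik2-205 included, the long form was 54.9% and 56.0% in the RSEM layout. In the kallisto layout it was 49.7% and 48.7%. By expected counts, which also rise with the 9427 bases of Grik2-207, the long form held 50.3% and 51.1% of all Grik2 reads and the short form 20.0% and 20.1%. No interval is given for these sums, and those of the short-tail transcripts were wide. Grik2-204 had deposited intervals of 3.69 to 8.50 TPM in replicate 1 and 3.93 to 8.13 TPM in replicate 2. Those of Grik2-201 were 0.000369 to 5.19 TPM and 0.795 to 5.09 TPM. The order of the tails was therefore not settled by these estimates.

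The early-ended transcript Grik2-210 was the leading Grik2 transcript by TPM. It stood at 8.11 TPM (deposited interval 6.85 to 9.21) and 8.62 TPM (7.28 to 9.64), or 21.6% and 22.0% of the gene. These intervals overlapped those of Grik2-202, at 5.65 to 8.61 and 6.22 to 8.97 TPM, so the lead of Grik2-210 lies within the uncertainty of the estimates. By expected counts the longer Grik2-207 led, with 858 and 919. Grik2-210 held 411 and 467 counts over 2085 bases, of which 848 bases in 2 exons are absent from Grik2-202. In the kallisto layout it held 17.9% and 16.6%, and there Grik2-204 led in replicate 1 and Grik2-206 in replicate 2. Grik2-206 is a fragment of 539 bases without annotated start or stop codon that skips an exon of 174 bases of Grik2-202. It held 45.1 and 58.4 counts and 10.7% and 12.4% of the TPM. Grik2-203, a retained-intron transcript, held 10.5% and 9.60%.

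The shares of Grik1 splice forms varied between libraries and layouts. Its 419 and 438 counts are spread over 11 annotated transcripts. One known form carries a cassette near the C-terminus, an in-frame exon of 87 bases at chr16:87896809-87896895 (minus strand), printed here because it is the difference between the coding sequences of Grik1-202 and Grik1-201.
Grik1 cassette: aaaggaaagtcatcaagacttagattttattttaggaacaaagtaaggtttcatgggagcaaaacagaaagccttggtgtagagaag
Grik1-201, without the cassette (905 codons), held 44.1% of Grik1 TPM in replicate 1 and 32.4% in replicate 2. Grik1-202, with it (934 codons), held 11.7% and 29.96%. Their deposited intervals overlapped between libraries, at 0.632 to 2.52 and 0.207 to 2.40 TPM for Grik1-201. In the kallisto layout Grik1-202 had 6.69 estimated counts in replicate 1 and 211 in replicate 2, while the whole gene had 469 and 491. Summed over both transcripts that hold it, the cassette form was 22.6% and 29.96% of the gene's TPM in the RSEM layout and 11.7% and 44.5% in the kallisto layout. The retained-intron transcript Grik1-208 held 5.08% and 5.26%, and in the kallisto layout 9.58% and 11.2%.

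Grik3, Grik4 and Grik5 were simpler. Grik3 has 1 annotated transcript, Grik3-201, of 8973 bases and 919 codons. Grik4 has 2, which share a coding sequence of 956 codons and differ outside it. Grik4-201 held 69.1% and 69.7% of the TPM, and 74.4% and 73.8% in the kallisto layout. Grik4-202 held the remaining 30.9% and 30.3%, and 25.6% and 26.2% in the kallisto layout. Grik5-201, the only coding transcript of Grik5 (979 codons), held 86.7% and 89.1%, and 77.4% and 81.6% in the kallisto layout. The other 6 Grik5 transcripts are retained-intron, processed or nonsense-mediated decay forms. Of them the decay transcript Grik5-207 differed most between layouts, at 156 and 99.0 counts in the RSEM layout and 941 and 660 in the kallisto layout.

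The gene level of Neto1 rests on a short transcript that the layouts treat differently. Neto1-201, the full-length form of 533 codons and 8352 bases, held 6193 and 6078 of the Neto1 counts and stood at 29.4 and 27.0 TPM. Neto1-203, a processed transcript of 384 bases without coding sequence, held 155 and 160 counts. Divided by its short length these made 21.3 TPM (deposited interval 15.9 to 26.0) and 20.6 TPM (15.7 to 25.0), or 37.5% and 36.5% of the gene. It was 2.41% and 2.52% of the gene's expected counts. In the kallisto layout it was listed at 0 in both libraries. All 384 of its bases lie inside exons of Neto1-201, and 1 of its 3 junctions is not found there. Neto1-202, an incomplete coding transcript of 527 bases, held 10.7% and 15.6%, and 17.2% and 19.2% in the kallisto layout.

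Without Neto1-203 the comparison with Grik2 turned. Neto1 was 1.52 and 1.44 times Grik2 with all transcripts in the RSEM layout, and 0.948 and 0.913 times without Neto1-203. It was 0.903 and 0.774 times in the kallisto layout, and 1.100 and 1.047 times from protein-coding transcripts only. The step between these 2 genes in the order of levels therefore depends on the quantification. Neto1 stayed above Neto2 in each of these settings.

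Neto2 RNA was divided between 2 start sites of coding sequence. Neto2-205 starts in an upstream exon and codes for 525 codons, and Neto2-201 starts in an internal exon and codes for 553. The start codons lie 9701 bases apart in the genome. The coding part of each first exon is printed with the start codon in capitals. It is not the only difference between the forms. Neto2-201 has 5610 bases, 1659 of them coding, and Neto2-205 has 2932, 1575 of them coding. Their shares are thus shares of whole transcripts and not a direct measure of start use.
Neto2 upstream start: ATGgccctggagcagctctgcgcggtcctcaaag
Neto2 internal start: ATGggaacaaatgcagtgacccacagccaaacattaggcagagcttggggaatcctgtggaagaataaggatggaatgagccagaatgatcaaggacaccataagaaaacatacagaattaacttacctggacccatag
The upstream stretch lies at chr8:85700641-85700674 and the internal one at chr8:85690835-85690973, both on the minus strand. Neto2-205 also holds 21 coding bases (chr8:85663387-85663407) that Neto2-201 lacks.
Neto2 extra codons: gtattttaaatcccattccag
Neto2-201 held 54.7% and 49.0% of Neto2 TPM, and Neto2-205 held 43.3% and 44.6%. In the kallisto layout Neto2-201 was at 50.1% and 43.9% and Neto2-205 at 49.0% and 51.2%. Of transcripts with a complete coding sequence the upstream start made 44.2% and 47.7% in the RSEM layout and 49.5% and 53.8% in the kallisto layout. The internal start thus led in both libraries of the RSEM layout and narrowly in replicate 1 of the kallisto layout. In replicate 2 of the kallisto layout the upstream start led.

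**Figure D4:**
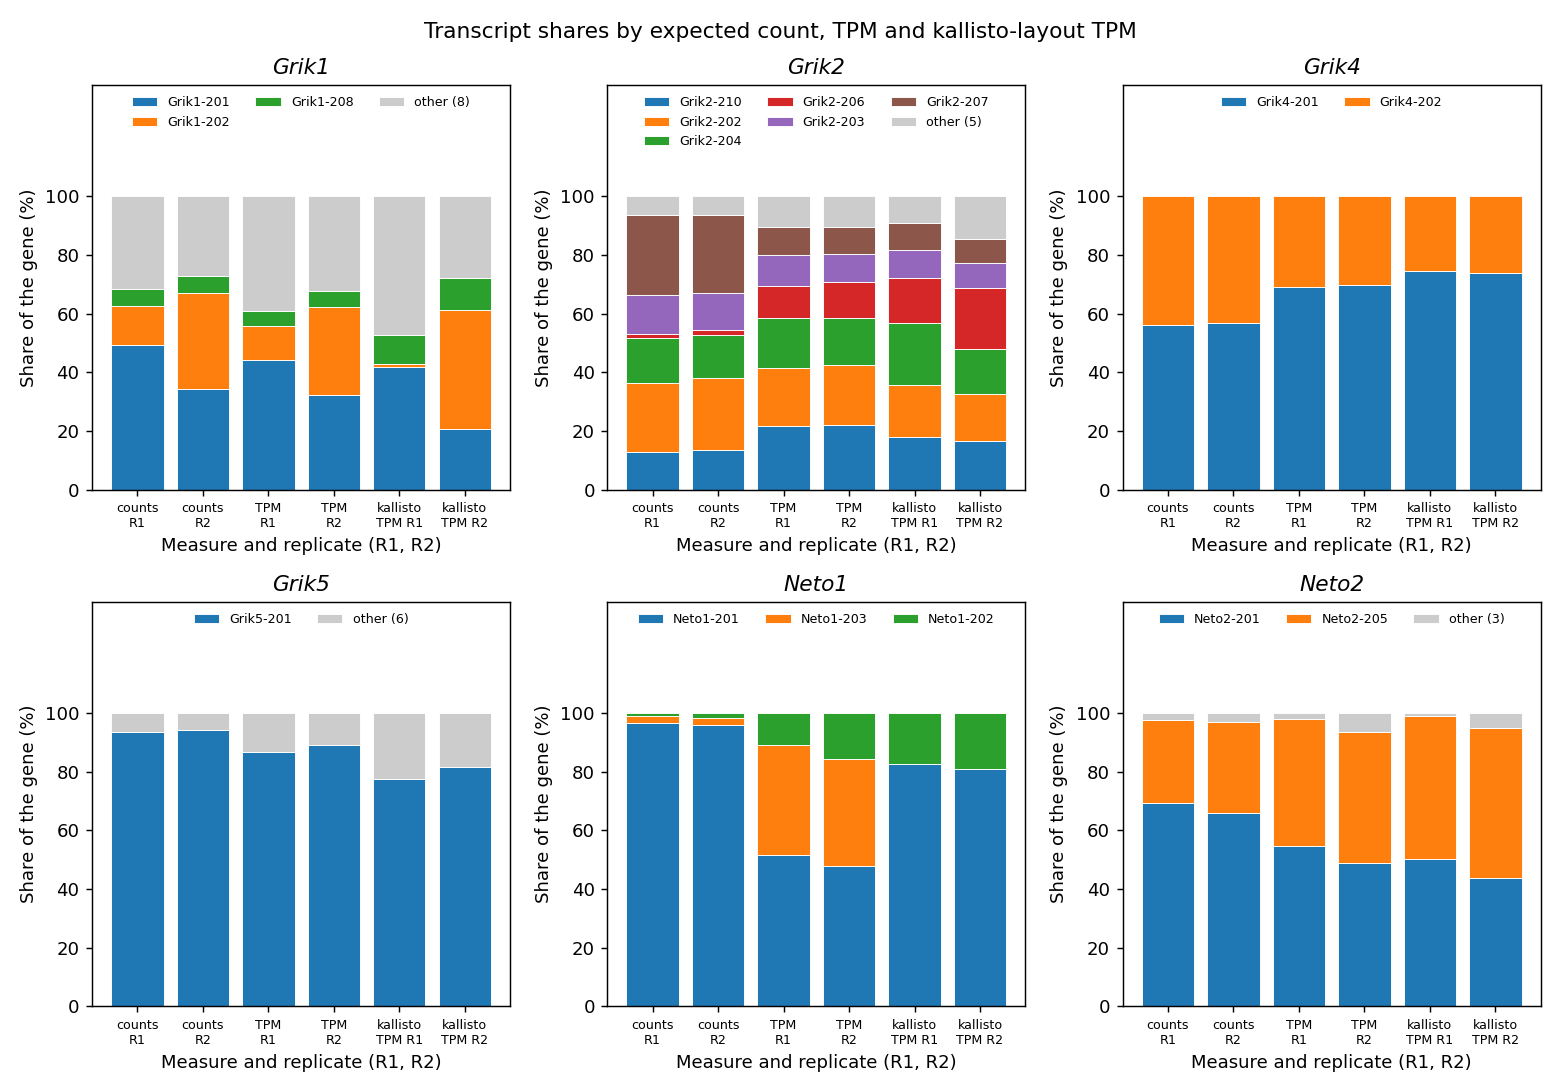
Share of each gene held by its transcripts, in percent, for the 6 genes with more than 1 transcript; each panel shows RSEM-layout expected counts, RSEM-layout TPM and kallisto-layout TPM for replicates 1 and 2 (R1, R2), with minor transcripts in grey. Neto1-203 takes 37.5% and 36.5% of the TPM from 2.41% and 2.52% of the counts and is absent from the kallisto bars, and Grik1-202 is the transcript whose TPM shares differ most between the libraries.

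Genes that overlap the members took few reads. Within introns of Grik2 lie 6 annotated genes on the same strand, with 157 and 152 counts in all. Gm26543 and Gm47018 are annotated as sense-intronic RNAs, and Gm47017, Gm47023, Gm47016 and Gm47022 as TEC, a class whose coding status the annotation does not settle. None of their bases lies inside a Grik2 exon. Ftl2-ps, a processed ferritin pseudogene within Grik3, had 68.4 and 30.1 counts in the RSEM layout and 8.07 and 0 in the kallisto layout, and it too lies outside the exons. The small RNA genes Mir692-2, Gm24420, Gm27509 and Mir8109, and AC113599.1, an antisense gene across Neto1 with 219 of its 1616 exon bases opposite exons of Neto1-201, were listed at 0 in both libraries and both layouts. The strand setting of the counting is not given in the sources used here, so the source strand of reads from those 219 bases is not known.

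The measured genes on the lists of proteins that edit, anchor, traffic and phosphorylate kainate receptors were detected. Detection does not set these genes apart, since 12733 protein-coding genes were detected in all. On these 4 partner lists 34 of 34 measured genes were detected, 0 were over 2-fold apart (0.384% of all tested genes were) and 0 over 1.2-fold (10.4% were). Their median log2 ratio was 0.01 beside 0.00 over all genes. Of the editing enzymes, Adar was at 50.01 and 51.25 TPM and Adarb1, which edits the Q/R position of Grik2, at 48.2 and 43.5 TPM. Adarb2, which has no known editing activity, was at 13.9 and 14.3 TPM.

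Scaffold and adhesion partners spanned 14 of 14 detected genes. Dlg4, which encodes PSD-95, a PDZ protein that binds the tail of GluK2a, led at 348 and 327 TPM. Ctnnb1 (beta-catenin) was at 206 and 216 TPM and Sdcbp (syntenin) at 105 and 102 TPM. Grip2, which encodes a PDZ scaffold, was lowest at 2.84 and 2.98 TPM. C1ql2 and C1ql3, secreted proteins that gather kainate receptors at mossy fibre synapses, were at 39.8 and 43.5 TPM and 76.7 and 68.2 TPM.

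Of the trafficking and turnover partners 10 of 10 were detected. Snap25, a release protein that also binds GluK5, was highest at 907 and 895 TPM. Pfn2, which encodes profilin 2, a binder of GluK2b, was at 213 and 200 TPM. Pacsin1, an endocytic adaptor, was at 137 and 132 TPM, and Senp1, which removes SUMO, was lowest at 5.34 and 4.26 TPM. The 7 kinase genes were all detected, led by Camk2a at 1333 and 1278 TPM, Camk2b at 425 and 387 TPM and Prkcb at 299 and 287 TPM, with Prkca lowest at 89.5 and 72.0 TPM.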

How the data were processed

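Total RNA of 2 hippocampal libraries was analysed from deposited tables. Per the file headers, the gene and transcript tables have the column layout that RSEM writes, and a second transcript table has the layout that kallisto writes; the layouts are named so here. The authors deposited expected counts (reads estimated by a model), the TPM with its credibility interval, the FPKM, and for each transcript its percent of the gene's TPM. The kallisto layout holds the authors' estimated count and TPM per transcript, which were summed per gene. Notes deposited beside the tables name the mm10 build and GENCODE M21. Not given in the sources used here were the aligner, program versions, strand setting and the level of the credibility interval.

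TPM values were used as deposited, and FPKM values were read but are not printed. Expected counts were rounded and scaled by TMM factors (edgeR 4.0.16, R 4.3.3, after filterByExpr). Folds are replicate 2 over replicate 1 with an exact 95% binomial interval that holds the summed count fixed and covers counting error only. A gene was called apart over 2-fold, or separately over 1.2-fold, at a mean count of at least 50. Counts were also simulated for 55536 genes at the mean counts of these libraries, with an assumed spread that was not estimated from them. The 2-fold rule found 100% of 200 genes that had been changed 4-fold, far beyond its cut-off, and 4 of 14081 that had not. In the real libraries 55 of 14307 genes were over 2-fold apart. The 1.2-fold rule was not tried on simulated counts. Sequences were read from the GENCODE M21 transcripts, and coding sequences were aligned globally with Biopython 1.88 (match 2, mismatch -1, gap opening -5, gap extension -0.5). Python 3.11.15, numpy 2.4.6, pandas 2.3.3, scipy 1.17.1 and matplotlib 3.10.9 were used.

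With 1 group there is no contrast and no p-value. The members and gene lists were chosen with earlier results of these data known. The text names the 7 members, their transcripts with a mean share of at least 10% in either layout, overlapping genes, and from each pathway list the 3 highest genes, the lowest and any over 2-fold apart. Other transcripts named, and C1ql2 and C1ql3, were added after their values were seen. A gene at 1 TPM or more in each library was called detected. Of the 35 genes on the partner lists, 1 is not analysed here. The family make-up covers kainate, AMPA and NMDA subunit genes. Alternatives were posterior mean TPM, the kallisto layout, coding transcripts only, expected counts, each library alone, DESeq2 1.42.0 size factors, library and ERCC spike-in totals, TPM ratios, and other count minimums and prior counts. Leaving out Neto1-203, and member levels from coding transcripts only, were chosen after seeing the data.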

Additional observations from a re-analysis of the deposited data

How the results depend on the processing

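No paired analysis was possible because there is 1 group and no contrast between groups. With 1 group of 2 libraries no sample could be tested for standing apart. Leaving out replicate 1 or replicate 2 moved no value by more than 1 SD, which holds by construction for a mean of 2. Neto1 over Grik2 (1.48) turned to 0.838 in the kallisto layout and 0.931 without Neto1-203, and was 1.07 from coding transcripts and 1.93 by expected counts. Neto1 over Neto2 (3.61) was 2.17 in the kallisto layout, 2.37 from coding transcripts and 2.27 without Neto1-203. The Neto over Grik sum (0.451) was 0.318 in the kallisto layout, 0.352 from coding transcripts, 0.496 by counts and 0.320 without Neto1-203. The Grik sum (160 TPM) was 257 in the kallisto layout and 144.0 from coding transcripts. The share of Grik4 and Grik5 (65.5%) was 63.6% in the kallisto layout and 60.2% by counts, and the kainate share of summed kainate, AMPA and NMDA subunit TPM (13.5%) was 13.9% in the kallisto layout and 13.9% from coding transcripts. The Grik2 long-tail share (55.5%) was 71.0% by counts and 49.2% in the kallisto layout, and the Neto2 upstream-start share (45.9%) was 30.4% and 51.6%. Grik2-210 (21.8% of its gene) was at 13.2% by counts, 17.3% in the kallisto layout and 25.2% among coding transcripts, and Neto1-203 (37.0%) was at 2.47% by counts and 0 in the kallisto layout. The same transcript led in both libraries for 6 genes, and for 3 in the kallisto layout. The cause of these shifts was not tested.

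No member was over 1.2-fold apart under any scaling or count minimum tried, with folds of 0.912 to 1.07. Over all genes, 55 were over 2-fold apart and 1483 over 1.2-fold. With TPM ratios 2260 were over 1.2-fold. Under a count minimum of 10 the numbers were 437 and 3903, under 200 they were 15 and 513, and with no minimum 6293 and 11804; the number of genes tested changes with the minimum. Depth limits Grik1 most, whose counting interval was 0.891 to 1.17.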
